A study of Danio rerio with 7 samples.

Results

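Arch ectomesenchyme is the part of the cranial neural crest (NC) that fills the pharyngeal arches and later forms cartilage, bone and connective tissue of the jaw. Its cells were taken here from single-cell RNA-seq of Tg(sox10:nEOS)w18 zebrafish, in which a sox10 promoter drives a photoconvertible nuclear protein in NC. The authors photoconverted cells of the stream that feeds the first pharyngeal arch (PA1), dissociated pooled embryos and sorted the converted cells. The groups are 1 droplet library from embryos at 30 hours post-fertilisation (hpf) and 1 from embryos at 24 hpf, of the same genotype and both made with chemistry version 2. A cell was counted as ectomesenchyme if it held at least 1 UMI (a counted RNA molecule) of dlx2a and at least 1 of twist1a, and none of gch2, epcam, cdh5, spi1b and myl7, genes of pigment, epithelial, endothelial, myeloid and cardiac cells. The rule found 234 cells in these 2 libraries, in a series of 2854 cells. They were 70 of the 131 cells of the 30 hpf library (53.4%, 95% Clopper-Pearson interval 44.5 to 62.2) and 164 of the 388 cells of the 24 hpf library (42.3%, 37.3 to 47.4). Since 1 library stood for each stage, no test between the stages was possible, and stage cannot be told apart from library.

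As background, arch ectomesenchyme is patterned along 2 axes. Along the front-to-back axis, crest of the second and more posterior arches expresses Hox genes, while crest of the first arch expresses none. Along the dorsal-to-ventral axis, Endothelin 1 and Bmp signals from the ventral epithelium turn on nested sets of Dlx genes and Hand2, and Jagged-Notch signalling together with Pou3f3 and Nr2f factors marks dorsal cells. Dlx2 and Twist1, on which the cells were chosen, are transcription factors expressed through most of the arch ectomesenchyme.

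The depth of the cells was alike. They held 921828 UMIs in all at 30 hpf and 2290324 at 24 hpf, with a median of 13638.5 UMIs per cell at 30 hpf (6567 to 20494) and 13856 at 24 hpf (6418 to 23021). No barcode was shared by the 2 libraries. Levels are given as CPM, the UMIs of a gene per 1000000 UMIs summed over the chosen cells of a library, with exact Poisson 95% intervals, and differences as log2 of the 30 hpf over the 24 hpf CPM with an exact binomial 95% interval. These intervals cover counting error only, not the differences between cells or between clutches. At a depth of 5000 UMIs per cell the rule took 43.5% of the cells at 30 hpf and 44.6% at 24 hpf, so the order of the 2 shares was not kept. The rule genes themselves had a median of 6 dlx2a and 6.5 twist1a UMIs per cell at 30 hpf, against 14 and 15 at 24 hpf, as a description only. Just inside the rule, 11 cells at 30 hpf and 5 at 24 hpf held exactly 1 UMI of either gene and more of the other, and none held 1 of each. Just outside it, 3 cells at 30 hpf and 38 at 24 hpf had both genes and also an excluded gene, which was gch2 in 0 and 34 of them.

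Markers of endothelial, myeloid, cardiac and muscle cells were near 0 in the chosen cells, and other marker lists held a few genes at higher levels. The summed level of 12 endothelial markers in the table was 6.51 CPM at 30 hpf and 3.49 CPM at 24 hpf. For 11 myeloid markers it was 1.08 CPM at 30 hpf and 2.62 CPM at 24 hpf, and for 15 cardiac and muscle markers 1.08 CPM at 30 hpf and 3.06 CPM at 24 hpf. The 11 blood genes summed to 32.5 CPM at 30 hpf and 5.68 CPM at 24 hpf in these cells, beside 37657 CPM and 9400 CPM in the other cells of the same libraries. The 14 epithelial markers, which include krt8, summed to 516 CPM at 30 hpf and 530 CPM at 24 hpf, beside 4902 CPM and 3785 CPM in the other cells. The 15 neural and glial genes summed to 47.7 CPM at 30 hpf and 46.3 CPM at 24 hpf, beside 456 CPM and 488 CPM. The 11 endoderm genes summed to 271 CPM at 30 hpf and 629 CPM at 24 hpf, of which her9, also in the Notch list, gave 264 CPM and 627 CPM, beside 832 CPM and 706 CPM in the other cells. The 10 head mesoderm genes summed to 144 CPM at 30 hpf and 248 CPM at 24 hpf, most of it cxcl12b and foxc1a, with tbx1 at 0 UMIs at both stages, beside 628 CPM and 1082 CPM in the other cells. The 13 pigment genes summed to 253 CPM at 30 hpf and 278 CPM at 24 hpf, most of it the purine synthesis gene paics and mycb, beside 153 CPM and 1530 CPM in the other cells. mitfa, the melanocyte factor, had 0 UMIs at 30 hpf and 1 UMI at 24 hpf. sox10 was at 72.7 CPM at 30 hpf and 66.4 CPM at 24 hpf in the ectomesenchyme cells, and at 252 CPM and 695 CPM in the other cells.

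Of 3670 genes with a mean of at least 20 CPM over the 2 libraries, 76 (2.07%) were 2-fold or more higher at 30 hpf and 215 (5.86%) 2-fold or more lower, 291 in all (7.93%). For 270 of the 291 the 2 Poisson intervals did not overlap. The median of all 3670 log2 ratios was -0.25. Ribosomal protein genes had a summed level of 382564 CPM at 30 hpf and 312535 CPM at 24 hpf, and when scaled by the median ratio the counts were 160 higher and 98 lower, by TMM 129 and 112, and without ribosomal protein genes in the totals 180 and 229. Directions of single values smaller than that shift are therefore not read here. As a scale for library differences, the 2 libraries of 18 hpf, which differ in chemistry, had 690 of 3689 genes (18.7%) past 2-fold in cells chosen by the same rule, 16.1% higher in the second and 2.6% lower.

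**Figure D1:**
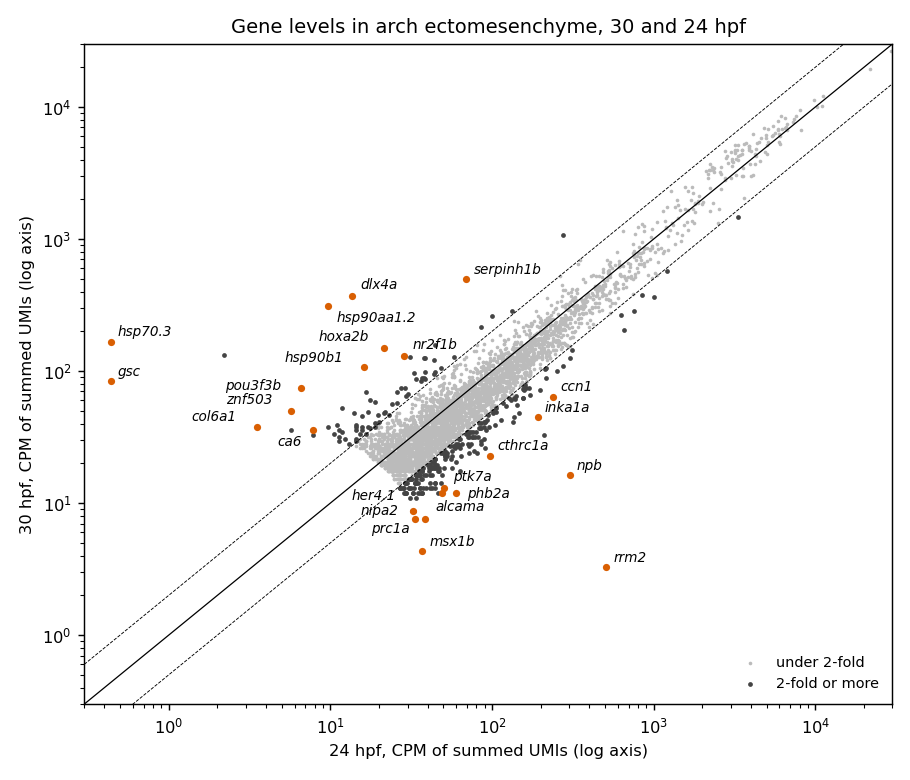
CPM of summed UMIs in ectomesenchyme cells at 30 hpf (vertical, log axis) against 24 hpf (horizontal, log axis), 1 point per gene with a mean of at least 20 CPM, with the line of equal level and dashed lines at 2-fold. Orange points are the 12 genes with the largest ratio in each direction: gsc and dlx4a stand far above the line, and rrm2 (3.25 CPM at 30 hpf, 510 CPM at 24 hpf) far below it.

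The 12 genes with the largest ratios upward included the transcription factor genes gsc, dlx4a, pou3f3b, hoxa2b and nr2f1b, which are described with their groups below. The zinc finger gene znf503 was at 49.9 CPM at 30 hpf and 5.68 CPM at 24 hpf. Most of its UMIs at both stages lay in cells with a Hox UMI, whose share was larger at 30 hpf, as given below. The part of that share in its difference was not tested. The others were chaperones, a collagen gene and ca6, a carbonic anhydrase gene (35.8 CPM at 30 hpf, 7.86 CPM at 24 hpf). Of the 12 with the largest ratios downward, npb, which encodes neuropeptide B, was at 16.3 CPM at 30 hpf and 302 CPM at 24 hpf. The homeobox gene msx1b was at 4.34 CPM at 30 hpf and 37.1 CPM at 24 hpf, and ccn1, which encodes a matricellular protein, at 64.0 CPM and 238 CPM. The Wnt polarity receptor gene ptk7a was at 13.0 CPM at 30 hpf and 50.6 CPM at 24 hpf, the adhesion gene alcama at 11.9 CPM and 49.3 CPM, and inka1a at 44.5 CPM and 192 CPM. phb2a, which encodes a prohibitin of mitochondria, was at 11.9 CPM at 30 hpf and 59.8 CPM at 24 hpf, and cthrc1a, which encodes a secreted collagen triple helix repeat protein, at 22.8 CPM and 97.8 CPM. The magnesium transporter gene nipa2 was at 7.59 CPM at 30 hpf and 33.2 CPM at 24 hpf. The remaining downward genes were rrm2, prc1a and her4.1, given with their groups. Between these, 2 upward and 3 downward genes without an assigned symbol were passed over.

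The Hox genes were found in a larger share of cells at 30 hpf. Of 7 Hox genes in the table, 2 were above the level filter, hoxa2b and hoxb2a, both of paralogue group 2. hoxa2b was at 150 CPM at 30 hpf (138 UMIs, interval 126 to 177) and at 21.4 CPM at 24 hpf (49 UMIs, 15.8 to 28.3), a log2 ratio of 2.81 (2.33 to 3.31). hoxb2a was at 86.8 CPM at 30 hpf (68.8 to 108) and at 33.6 CPM at 24 hpf (26.5 to 42.0), a log2 ratio of 1.37 (0.90 to 1.84). The share of cells that carried Hox RNA also differed. A UMI of a Hox gene of group 2 or higher was found in 37 of 70 cells at 30 hpf (52.9%, 40.6 to 64.9) and in 24 of 164 cells at 24 hpf (14.6%, 9.61 to 21.0). At 5000 UMIs per cell the shares were 47.1% at 30 hpf and 10.4% at 24 hpf. Among the other cells of the libraries they were 9.84% (6 of 61, 3.70 to 20.2) at 30 hpf and 6.70% (15 of 224, 3.80 to 10.8) at 24 hpf, at median depths of 11192 and 12133.5 UMIs.

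Hox UMIs were not spread thinly over the cells. Cells with a Hox UMI held a median of 5 of them at 30 hpf and 4.5 at 24 hpf, and exactly 1 Hox UMI was found in 1 cell at 30 hpf and in 3 cells at 24 hpf. The 2 classes of cells also parted in genes the Hox count did not use. meis1a, which encodes a homeodomain cofactor of Hox proteins, was found in 35 of the 37 Hox-containing cells at 30 hpf and 20 of the 24 at 24 hpf. In the Hox-free cells it was found in 0 of 33 cells at 30 hpf, for which the limit of a count of 0 is 9.09%, and in 0 of 140 at 24 hpf, with a limit of 2.14%. Across the 70 cells of 30 hpf, meis1a was the gene closest to hoxa2b by Spearman rho (0.75, of 5809 genes), followed by hoxb2a (0.70) and znf503 (0.55). Across the 164 cells of 24 hpf, hoxb2a (0.81), meis1a (0.74) and meis1b (0.65) led. These points are cells of 1 library each and share its depth, and many of them are at 0. The methods describe the converted cells as those of the PA1 stream, while 52.9% of the 30 hpf cells carried RNA of genes that, as background, mark crest of the second and more posterior arches, so the data go against a purely first-arch label for these cells. Whether the region converted, the stage or the library gave the difference in the Hox share cannot be told apart.

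**Figure D2:**
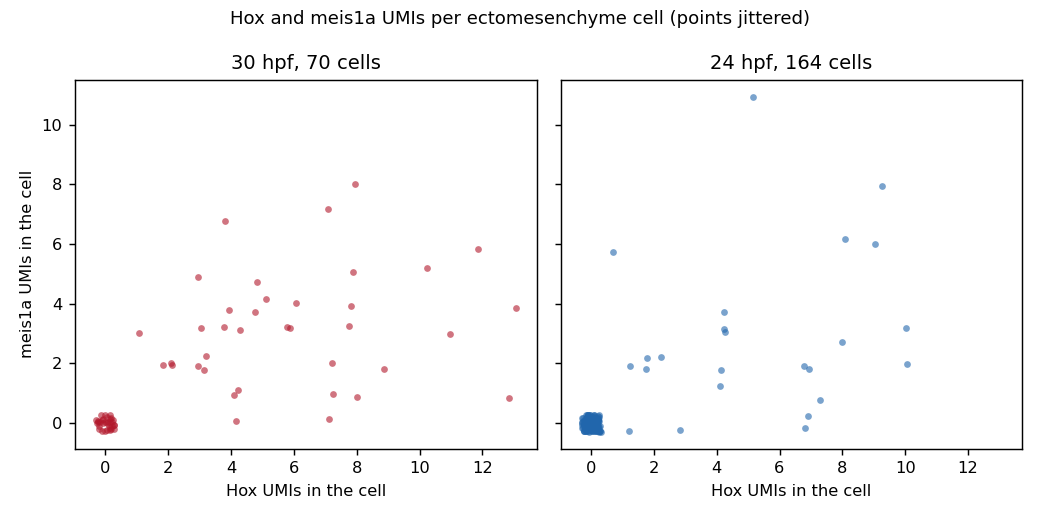
UMIs of Hox genes of group 2 or higher (horizontal) and of meis1a (vertical) in each ectomesenchyme cell, 70 cells at 30 hpf on the left and 164 cells at 24 hpf on the right, jittered so that overlapping cells show. Cells without a Hox UMI sit together at 0 on both axes, and every cell with meis1a lies to the right of them at both stages.

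Since the Hox-containing share differed, levels were also compared within each class. The Hox-containing cells held 509711 UMIs at 30 hpf (37 cells) and 354295 at 24 hpf (24 cells), and the Hox-free cells 412117 UMIs at 30 hpf (33 cells) and 1936029 at 24 hpf (140 cells). Among Hox-free cells 393 of 3693 genes (10.6%) were past 2-fold, 105 (2.84%) higher at 30 hpf and 288 (7.8%) lower. Among Hox-containing cells 620 of 3661 genes (16.9%) were, 140 (3.82%) higher and 480 (13.1%) lower. In the other cells of the libraries 565 of 3928 genes (14.4%) were, 222 (5.65%) higher and 343 (8.73%) lower. The 2 Poisson intervals did not overlap for 258 of the 393 and 229 of the 620. Over all cells 2 of 3 Meis and Pbx genes above the filter were past 2-fold higher at 30 hpf, beside 2.07% of all genes. They were meis1a (127 CPM at 30 hpf, 31.0 CPM at 24 hpf) and meis1b, while pbx4 was at 165 CPM at 30 hpf and 151 CPM at 24 hpf. Within Hox-containing cells meis1a did not differ beyond counting error (230 CPM at 30 hpf, 200 CPM at 24 hpf, log2 ratio 0.20, -0.24 to 0.64). There hoxa2b was at 271 CPM at 30 hpf and 138 CPM at 24 hpf, while hoxb2a was at 157 CPM at 30 hpf and 217 CPM at 24 hpf. The class was chosen by UMIs of these same Hox genes, so their levels within it are a description only.

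**Figure D3:**
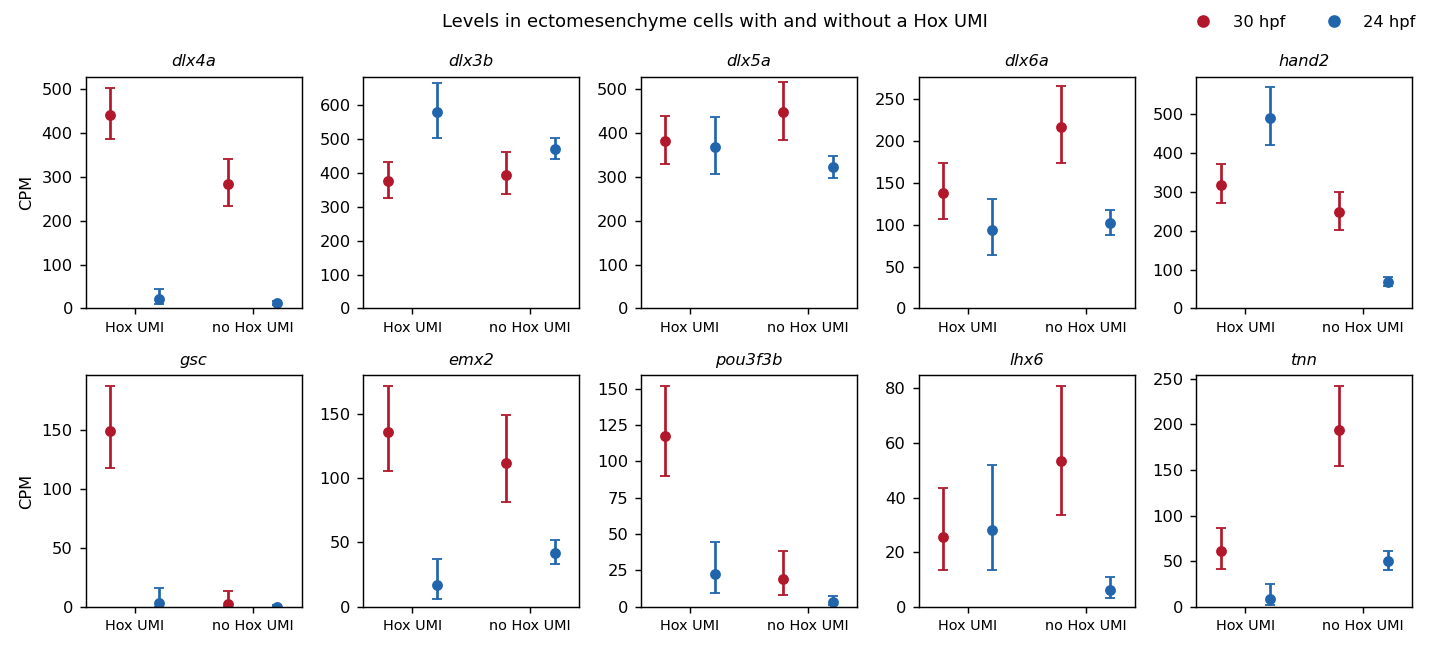
CPM of 10 genes in ectomesenchyme cells with a Hox UMI (left pair of each panel) and without one (right pair), 30 hpf in red and 24 hpf in blue. Bars are exact Poisson 95% intervals of the summed counts. dlx4a is higher at 30 hpf in both classes, gsc lies above 3 CPM only in the Hox-containing cells of 30 hpf, and the hand2 level of Hox-containing cells at 24 hpf includes 1 cell with 70 of its 174 UMIs.

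Dlx genes encode homeobox factors whose nested expression sets dorsal-ventral identity in the arches. Besides dlx2a, 6 Dlx genes passed the level filter, and 1 of them, dlx4a, was past 2-fold, beside 7.93% of all genes. dlx4a was at 371 CPM at 30 hpf (342 UMIs, 333 to 412) and 13.5 CPM at 24 hpf (31 UMIs, 9.20 to 19.2), a log2 ratio of 4.78 (4.24 to 5.36). It was found in 39 of 70 cells at 30 hpf (55.7%) and in 16 of 164 cells at 24 hpf (9.76%), and among the other cells in 4.92% and 2.23%. Both classes showed the difference, with 441 CPM at 30 hpf and 22.6 CPM at 24 hpf in Hox-containing cells and 284 CPM and 11.9 CPM in Hox-free cells. Its paralogue dlx4b ran the other way, at 155 CPM at 30 hpf and 303 CPM at 24 hpf (log2 ratio -0.97, -1.24 to -0.71), short of 2-fold. Reads shared between these paralogues were not examined, so both levels are uncertain to that extent.

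The other Dlx genes differed by less. dlx5a was at 410 CPM at 30 hpf (370 to 454) and 328 CPM at 24 hpf (305 to 353), and its neighbour dlx6a at 172 CPM (147 to 201) and 100.4 CPM (87.9 to 114). dlx3b was at 385 CPM at 30 hpf and 488 CPM at 24 hpf, and dlx1a at 51.0 CPM and 84.7 CPM. Most cells with dlx4a also held dlx3b. At 30 hpf 35 cells (50%, 37.8 to 62.2) held both and 4 held dlx4a without dlx3b. At 24 hpf 16 cells (9.76%, 5.68 to 15.4) held both and 0 held dlx4a alone, with a limit of 1.83%. The share of cells with any of dlx3b, dlx4a and dlx4b was 68.6% at 30 hpf (56.4 to 79.1) and 72.0% at 24 hpf (64.4 to 78.7), so the intervals of that share overlapped. Over the cells of 30 hpf the genes closest to dlx4a were dlx3b (rho 0.79), dlx6a (0.73), dlx4b (0.72) and dlx5a (0.66).

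Among 19 ventral and intermediate arch genes above the level filter, 4 were past 2-fold higher at 30 hpf (gsc, dlx4a, emx2 and hand2) and 4 lower (msx1b, ednrab, mef2ca and foxd2). emx2 is placed here by the list only, since its cells at 30 hpf held no hand2, as given below. The shares over all genes were 2.07% higher and 5.86% lower. The median log2 ratio of the 19 genes was -0.07, beside -0.25 for all genes. gsc encodes the homeobox factor Goosecoid, which in mouse is needed for jaw and ear structures. It was at 83.5 CPM at 30 hpf (77 UMIs, 65.9 to 104) and 0.44 CPM at 24 hpf (1 UMI, 0.01 to 2.43), a log2 ratio of 7.58 (5.06 to 12.90). It was found in 14 of 70 cells at 30 hpf (20.0%) and 1 of 164 at 24 hpf (0.610%), beside 4.92% and 0.893% of the other cells. Of the 77 UMIs at 30 hpf 76 lay in Hox-containing cells (149 CPM), and 1 in a Hox-free cell (2.43 CPM), a log2 ratio between the classes of 5.94 (3.42 to 11.26). At 24 hpf the single UMI was also in a Hox-containing cell.

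hand2 encodes the bHLH factor of the ventral arch. Over all cells it was at 286 CPM at 30 hpf (253 to 323) and 134 CPM at 24 hpf (119 to 149), 2.14-fold higher (1.81 to 2.54). Without the 30 hpf cell with the most hand2 UMIs (36 of 264) it was 1.89-fold higher, short of 2-fold, and without the 24 hpf cell with the most (70 of 306) 2.75-fold. In Hox-free cells hand2 was at 248 CPM at 30 hpf (102 UMIs in 7 of 33 cells) and 68.2 CPM at 24 hpf (132 UMIs in 27 of 140 cells), a log2 ratio of 1.86 (1.47 to 2.24), and 1.298 (0.85 to 1.73) without the 30 hpf cell with the most. Of those 102 UMIs 36 and 30 lay in 2 cells, and the ratio without both was not computed. The higher level thus rested largely on few cells. In Hox-containing cells hand2 was at 318 CPM at 30 hpf (15 of 37 cells) and 491 CPM at 24 hpf (10 of 24 cells), a log2 ratio of -0.63 (-0.95 to -0.31). In the Hox-containing cells of 24 hpf, 70 of the 174 hand2 UMIs lay in 1 cell. Without it the level at 24 hpf was 314 CPM and the log2 ratio 0.0181 (-0.35 to 0.39), so the lower level at 30 hpf rested on that cell. The share of Hox-free cells with hand2 was 21.2% at 30 hpf (8.98 to 38.9) and 19.3% at 24 hpf (13.1 to 26.8), and these intervals overlapped.

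emx2, a homeobox gene, was higher at 30 hpf in both classes. Over all cells it was at 125 CPM at 30 hpf (103 to 150) and 38.0 CPM at 24 hpf (30.4 to 46.9). In Hox-containing cells it was at 135 CPM at 30 hpf (17 of 37 cells) and 16.9 CPM at 24 hpf (2 of 24 cells, with 5 and 1 UMIs). In Hox-free cells it was at 112 CPM at 30 hpf (14 of 33 cells) and 41.8 CPM at 24 hpf (29 of 140 cells). lhx6, a LIM homeobox gene of the first arch in mouse, was at 53.4 CPM at 30 hpf (22 UMIs in 12 of 33 cells) and 6.20 CPM at 24 hpf (12 UMIs in 9 of 140 cells) in Hox-free cells. In Hox-containing cells lhx6 was at 25.5 CPM at 30 hpf (13.6 to 43.6) and 28.2 CPM at 24 hpf (13.5 to 51.9), where the intervals overlapped. barx1, a homeobox gene of the intermediate arch, was at 370 CPM at 30 hpf and 437 CPM at 24 hpf, a difference smaller than the shift of all genes. foxd1 was at 241 CPM at 30 hpf and 137 CPM at 24 hpf, short of 2-fold.

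Of the endothelin receptor genes, ednrab was past 2-fold lower at 30 hpf and ednraa was not. ednrab was at 206 CPM at 30 hpf (190 UMIs, 178 to 238) and 655 CPM at 24 hpf (1500 UMIs, 622 to 689), a log2 ratio of -1.67 (-1.89 to -1.45). The difference had the same size in Hox-containing cells (log2 ratio -1.67) and Hox-free cells (-1.62). ednraa was at 102 CPM at 30 hpf (82.4 to 125) and 115 CPM at 24 hpf (102 to 130). mef2ca, which encodes a MADS factor downstream of endothelin signalling, was at 28.2 CPM at 30 hpf and 85.1 CPM at 24 hpf. The forkhead gene foxd2 was at 30.4 CPM at 30 hpf and 89.5 CPM at 24 hpf.

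Of 15 dorsal arch genes above the level filter, 3 were past 2-fold higher at 30 hpf (pou3f3b, nr2f1b and nr2f2) and 2 lower (six1b and grem2b). Among all genes 2.07% were higher and 5.86% lower, and counts this small are given as values only. The median log2 ratio of the list was 0.34, beside -0.25 for all genes. pou3f3b, a POU factor gene of the dorsal arch, was at 73.8 CPM at 30 hpf (68 UMIs, 57.3 to 93.5) and 6.55 CPM at 24 hpf (15 UMIs, 3.67 to 10.8). Its level was 118 CPM in Hox-containing and 19.4 CPM in Hox-free cells at 30 hpf, and 22.6 CPM and 3.62 CPM at 24 hpf. The log2 ratios of the stages were alike in the 2 classes, 2.38 (1.31 to 3.66) and 2.42 (0.77 to 4.12). nr2f1b and nr2f2, orphan nuclear receptor genes, were at 129 CPM and 73.8 CPM at 30 hpf and at 28.4 CPM and 27.5 CPM at 24 hpf. six1b, which encodes a homeobox factor, was at 39.1 CPM at 30 hpf and 104 CPM at 24 hpf, and grem2b, which encodes a secreted Bmp antagonist, at 375 CPM and 850 CPM. The most abundant member, the Notch target her6, was at 2227 CPM at 30 hpf and 1757 CPM at 24 hpf.

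At 30 hpf hand2 was not found in the cells that held pou3f3b or emx2. None of the 21 cells with pou3f3b held hand2, and none of the 31 cells with emx2 did, while 22 of the 70 cells held hand2. As a share of all 70 cells the limit of a count of 0 is 4.29%, and among the 21 or the 31 cells alone it is wider. At 24 hpf 2 of 9 cells with pou3f3b and 1 of 31 cells with emx2 held hand2. By comparison, 12 of the 14 cells with gsc at 30 hpf held hand2. Over the 70 cells hand2 was closest to bambia (rho 0.59), a Bmp pseudoreceptor gene, and farthest from emx2 (-0.56) and the endothelin receptor gene ednraa (-0.55). emx2 was closest to ednraa (0.54), grem2b (0.50) and ednrab (0.48), and gsc to fgfbp2a (0.50) and hand2 (0.48). Among dorsal genes, the rho of emx2 was 0.44 with pou3f3b, 0.40 with nr2f1b and -0.27 with prrx1b. With dlx5a and dlx6a, which share its ventral and intermediate list with ednraa and ednrab, it was -0.26 and -0.37. At 24 hpf hand2 was closest to dlx6a (0.59) and dlx5a (0.55). The rho of emx2 there was only -0.06 with grem2b, 0.07 with ednrab and -0.05 with prrx1b. With nr2f1b, dlx5a and dlx6a it was 0.30, -0.30 and -0.29, of the same sign as at 30 hpf. Values near 0.5 in counts as sparse as these are weak.

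**Figure D4:**
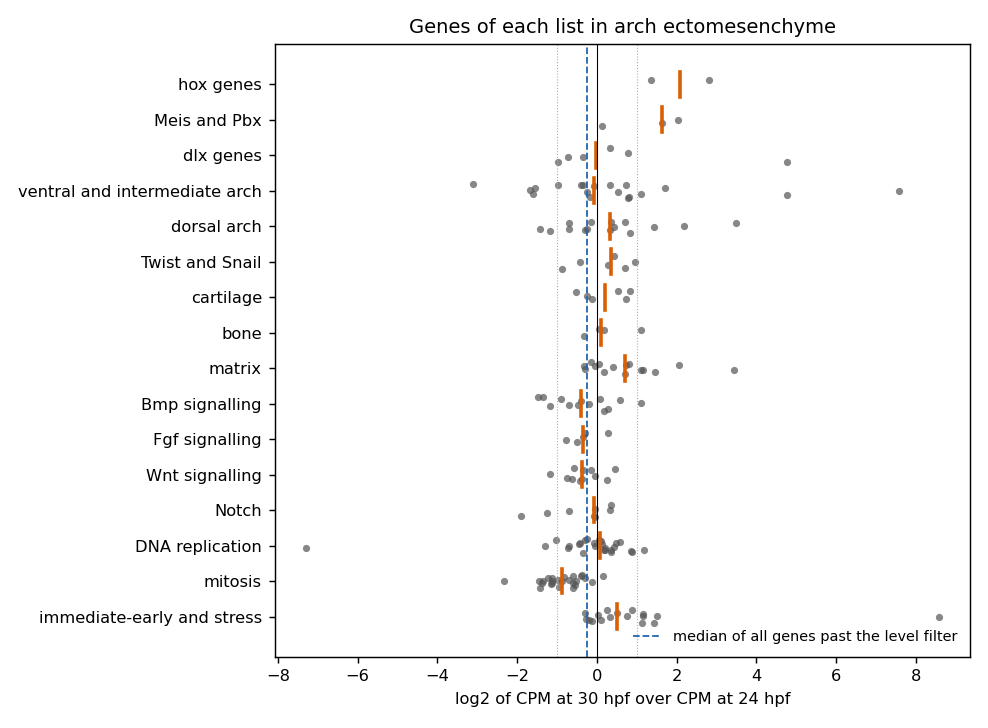
log2 of the CPM at 30 hpf over that at 24 hpf for each gene above the level filter in 16 gene lists (grey points), with the list median (orange bar). The dashed line is the median of all 3670 genes (-0.25) and the dotted lines mark 2-fold. The median of the mitosis genes (-0.88) lies below the dashed line and that of the matrix genes (0.70) above it.

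The matrix list had a higher summed level at 30 hpf, and 5 of its genes were past 2-fold. Of 15 genes of the matrix list above the filter (35 in the table), 5 were past 2-fold higher at 30 hpf and 0 lower, beside 2.07% and 5.86% of all genes. The median log2 ratio was 0.70, beside -0.25 for all genes. The summed level was 1609 CPM at 30 hpf (1528 to 1693) and 1188 CPM at 24 hpf (1144 to 1234). Among them tnn, which encodes a tenascin, was at 120 CPM at 30 hpf (99.1 to 145) and 43.7 CPM at 24 hpf (35.5 to 53.1). col6a1 and col12a1a, collagen genes, were at 38.0 CPM and 69.4 CPM at 30 hpf and at 3.49 CPM and 16.6 CPM at 24 hpf. col1a2, a fibrillar collagen gene, and dcn, which encodes the proteoglycan decorin, were at 105 CPM and 67.3 CPM at 30 hpf and at 48.5 CPM and 30.1 CPM at 24 hpf. tnc (120 CPM at 30 hpf, 149 CPM at 24 hpf), postnb (161 CPM and 166 CPM) and col1a1a (128 CPM and 123 CPM) were short of 2-fold over all cells. The log2 ratio of tnc over all cells was -0.31 (-0.63 to 0.007), not beyond counting error. Within Hox-containing cells tnc was at 66.7 CPM at 30 hpf (34 UMIs) and 28.2 CPM at 24 hpf (10 UMIs, log2 ratio 1.24, 0.19 to 2.42). Within Hox-free cells it was at 187 CPM and 171 CPM (0.13, -0.25 to 0.49). col1a1a was higher at 30 hpf in Hox-free cells, at 204 CPM against 140 CPM (0.54, 0.17 to 0.90). In Hox-containing cells it was at 66.7 CPM (34 UMIs) against 31.0 CPM (11 UMIs, 1.103, 0.09 to 2.23). For both genes the Poisson intervals of the 2 stages overlapped in Hox-containing cells.

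Several matrix genes differed between the classes at 30 hpf. tnn was at 60.8 CPM in Hox-containing and 194 CPM in Hox-free cells (log2 ratio -1.67, -2.32 to -1.06), dcn at 27.5 CPM and 116 CPM (-2.08, -3.06 to -1.20) and col1a2 at 45.1 CPM and 180 CPM (-1.99, -2.74 to -1.30). For col6a1 the order was reversed, with 52.97 CPM in Hox-containing and 19.4 CPM in Hox-free cells (1.45, 0.27 to 2.80). Also lower in Hox-containing cells were col1a1a (-1.61, -2.23 to -1.02), col1a1b (-2.70, -4.70 to -1.13) and tnc (-1.49, -2.11 to -0.89). So were mmp2 (-1.08, -1.87 to -0.32), postnb (-0.98, -1.49 to -0.49) and sparc (-0.83, -1.38 to -0.29). The classes did not differ beyond counting error at 30 hpf in col12a1a (log2 ratio -0.13, -0.88 to 0.63), col5a1 (-0.15, -0.95 to 0.65) and hapln1a (0.14, -0.18 to 0.47). The same held for fn1a (-0.31, -1.44 to 0.83) and mmp14b (-0.31, -1.65 to 1.04). Matrix RNA was also higher in the other cells of the 30 hpf library, where the list summed to 2838 CPM, against 1531 CPM in those of 24 hpf. Its part in the values above was not tested. serpinh1b, which encodes the collagen chaperone of the endoplasmic reticulum, was at 494 CPM at 30 hpf (449 to 541) and 69.4 CPM at 24 hpf (59.1 to 81.1) in ectomesenchyme, and at 436 CPM and 63.4 CPM in the other cells.

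Of 6 cartilage genes above the filter, 0 were past 2-fold, beside 7.93% of all genes, and the median log2 ratio was 0.20. The cartilage sum was 1092 CPM at 30 hpf (1026 to 1162) and 972 CPM at 24 hpf (932 to 1014), a log2 ratio of 0.17 that was 0.32 in Hox-free cells and -0.56 in Hox-containing cells. hapln1a, which is in both lists and encodes a link protein of hyaluronan matrix, was at 359 CPM at 30 hpf and 218 CPM at 24 hpf, with a log2 ratio of 0.92 (0.62 to 1.21) in Hox-free and -0.19 (-0.50 to 0.13) in Hox-containing cells. The type II collagen gene col2a1b was at 90.04 CPM at 30 hpf (71.7 to 112) and 98.2 CPM at 24 hpf (85.8 to 112), and fgfbp2a at 106 CPM and 59.8 CPM. sox9a, the factor that starts cartilage differentiation, had 0 UMIs at 30 hpf, for which the limit is 3.25 CPM, and 1 UMI at 24 hpf (0.44 CPM). col2a1a was at 5.42 CPM at 30 hpf, all 5 UMIs in 1 cell, and at 3.93 CPM at 24 hpf. Of 4 bone genes above the filter only col1a2, also in the matrix list, was past 2-fold.

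Bmp signalling genes were lower at 30 hpf in sum. Of 13 above the filter, 3 were past 2-fold lower (bmp5, bambia and grem2b) and 1 higher (id2b), beside 5.86% and 2.07% of all genes. The median log2 ratio was -0.40, beside -0.25 for all genes. The list mixes ligands, targets and antagonists such as grem2b, so its sum is no measure of pathway activity. The sum was 2628 CPM at 30 hpf (2525 to 2735) and 4586 CPM at 24 hpf (4499 to 4674), and 2000 CPM and 4070 CPM in the other cells. The most abundant member was id1, an inhibitor of bHLH factors and a direct Bmp target, at 1328 CPM at 30 hpf (1254 to 1404) and 2497 CPM at 24 hpf (2432 to 2562), short of 2-fold. The ligand gene bmp5 was at 71.6 CPM at 30 hpf and 198 CPM at 24 hpf (log2 ratio -1.47, -1.86 to -1.09), and bambia at 55.3 CPM and 142 CPM. id2b was at 40.1 CPM at 30 hpf and 18.8 CPM at 24 hpf, and nog2, which encodes the antagonist Noggin, at 82.4 CPM and 72.5 CPM.

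The other pathway lists held few genes past 2-fold, where 2.07% of all genes above the filter were past it higher and 5.86% lower. In lists this short, counts of 0 to 2 are given as values only and say nothing particular to a list. Of 11 Wnt genes above the filter 1 was lower (prickle1b, 22.8 CPM at 30 hpf, 51.5 CPM at 24 hpf) and 0 higher, and of 5 Fgf genes 0 were past 2-fold. Among 8 genes of the Notch list, her9 (264 CPM at 30 hpf, 627 CPM at 24 hpf) and her4.1 (8.68 CPM and 32.3 CPM) were lower, the second of a tandem gene family whose members were not separated here. Of 8 Hedgehog response genes, the forkhead gene foxc1a was higher (38.0 CPM at 30 hpf, 15.7 CPM at 24 hpf) and the coreceptor gene gas1b lower (36.9 CPM and 84.7 CPM). Of 5 retinoic acid genes the receptor gene rarga was lower (25.0 CPM at 30 hpf, 77.3 CPM at 24 hpf), and nr2f2, named above, was higher. None of 6 Twist and Snail genes was past 2-fold. The nearest was twist1b, the paralogue of a rule gene, at 156 CPM at 30 hpf (132 to 184) and 80.8 CPM at 24 hpf (69.6 to 93.3). Among adhesion and migration genes, the chemokine receptor gene cxcr4a was at 41.2 CPM at 30 hpf and 134 CPM at 24 hpf, the ligand gene cxcl12b at 87.9 CPM and 217 CPM, and the cadherin gene cdh11 at 74.9 CPM and 163 CPM, while cxcl12a was at 38.0 CPM and 17.0 CPM. Of 6 p53 targets, phlda3 (126 CPM at 30 hpf, 306 CPM at 24 hpf) and the cyclin-dependent kinase inhibitor gene cdkn1a (11.9 CPM and 32.3 CPM) were lower. Of 18 cytoskeleton and adhesion genes above the filter 4 were past 2-fold, 1 higher (cxcl12a) and 3 lower (cxcr4a, cxcl12b and cdh11). The median log2 ratio was -0.56, beside -0.25 for all genes, and the list summed to 9147 CPM at 30 hpf and 11184 CPM at 24 hpf. The keratin gene krt18a.1 was at 652 CPM at 30 hpf and 338 CPM at 24 hpf, short of 2-fold. Of 7 methionine and one-carbon genes 0 were past 2-fold (ahcy, 523 CPM at 30 hpf and 262 CPM at 24 hpf), and of 3 early neural crest genes 0 were. The one frontonasal gene above the filter was rarga. Of 5 glycolysis genes, tpi1b (33.6 CPM at 30 hpf, 10.48 CPM at 24 hpf) and eno3 (32.5 CPM and 7.86 CPM) were higher.

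A list of 40 skeletal genes was chosen by the study on these samples, so it is no independent evidence of a direction. Of its 37 genes above the filter 5 were past 2-fold higher at 30 hpf (emx2, foxc1a, hand2, hoxb2a and meis1b) and 5 lower (foxd2, mef2ca, rarga, six1b and ube2c). For all genes the shares were 2.07% higher and 5.86% lower. meis1b was at 58.6 CPM at 30 hpf and 18.8 CPM at 24 hpf, and within Hox-containing cells at 88.3 CPM and 96.0 CPM.

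The mitosis list had a lower summed level at 30 hpf. Of 25 above the filter 10 were past 2-fold lower and 0 higher, beside 5.86% and 2.07% of all genes. The median log2 ratio was -0.88, beside -0.25 for all genes. The sum was 1447 CPM at 30 hpf (1371 to 1527) and 2543 CPM at 24 hpf (2478 to 2609). The mitotic kinase gene cdk1 was at 66.2 CPM at 30 hpf (50.6 to 85.0) and 172 CPM at 24 hpf (156 to 190), the spindle gene tpx2 at 42.3 CPM and 114 CPM, and ube2c, which encodes a ubiquitin carrier of the anaphase promoting complex, at 143 CPM and 311 CPM. prc1a, which encodes a spindle midzone protein, was at 7.59 CPM at 30 hpf and 38.4 CPM at 24 hpf. The others past 2-fold lower were ccnb1, nusap1, cenpf, kif11, kif23 and ttk. Of 15 alternative settings, they stayed past 2-fold in 10 (ccnb1, nusap1), 11 (cenpf), 12 (kif11) and 13 (kif23, ttk). ccna2 (154 CPM at 30 hpf, 169 CPM at 24 hpf) and plk1 (99.8 CPM and 132 CPM) were short of 2-fold. In the other cells the list summed to 1237 CPM at 30 hpf and 1660 CPM at 24 hpf. In Hox-free ectomesenchyme 13 of 25 were past 2-fold lower and 0 higher, beside 7.8% and 2.84% of all genes in those cells.

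The DNA replication list summed to 5436 CPM at 30 hpf and 5616 CPM at 24 hpf. Of 26 above the filter 3 were past 2-fold lower (rrm2, cdt1 and orc6) and 1 higher (ccne2, cyclin E2, 86.8 CPM at 30 hpf and 38.4 CPM at 24 hpf). Over all genes 5.86% were lower and 2.07% higher, so these counts are given as values only. pcna, the sliding clamp of replication, was at 1824 CPM at 30 hpf and 1421 CPM at 24 hpf, and mcm2 at 264 CPM and 231 CPM. The largest difference downward of all genes with a symbol was that of rrm2, which encodes the small subunit of ribonucleotide reductase, with 3 UMIs at 30 hpf (3.25 CPM, 0.67 to 9.51) and 1169 UMIs at 24 hpf (510 CPM, 482 to 541), a log2 ratio of -7.29 (-9.57 to -5.74). Its paralogue rrm2.1 was at 1066 CPM at 30 hpf (983 UMIs) and 273 CPM at 24 hpf (625 UMIs). The other cells showed the same, with rrm2 at 2.53 CPM at 30 hpf and 439 CPM at 24 hpf and rrm2.1 at 611 CPM and 214 CPM. Whether reads of the 2 genes were assigned alike in both libraries was not tested, and the pair is reported as uncertain.

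Several heat shock genes were higher at 30 hpf in ectomesenchyme and in the other cells. hsp70.3 was at 167 CPM at 30 hpf (154 UMIs) and 0.44 CPM at 24 hpf (1 UMI) in ectomesenchyme, and at 146 CPM and 8.77 CPM in the other cells. It belongs to a family of near-identical genes, so its level is uncertain. hsp90aa1.2 was at 311 CPM at 30 hpf and 9.61 CPM at 24 hpf, and at 348 CPM and 45.9 CPM in the other cells. hsp90b1, a chaperone gene of the endoplasmic reticulum, was at 107 CPM at 30 hpf and 16.2 CPM at 24 hpf, and at 151 CPM and 27.7 CPM in the other cells. Of 17 immediate-early and stress genes above the filter 6 were past 2-fold higher (fosb, fosl1a, egr1, hsp70.3, dnajb1b and hspa5) and 0 lower, beside 2.07% and 5.86% of all genes. The summed level of that list was 9643 CPM at 30 hpf and 9445 CPM at 24 hpf, most of it hspa8 (5201 CPM and 6011 CPM). The part of these genes in the other differences between the libraries was not tested.

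Earlier stages placed these levels in time, again with 1 library each. dlx4a had 0 UMIs in the 74 cells chosen by the rule in the first 18 hpf library and 0 in the 255 cells of 20 hpf, with a limit of 0.588 CPM at 20 hpf, and 1 UMI in the 299 cells of the second 18 hpf library. Its level was 13.5 CPM at 24 hpf and 371 CPM at 30 hpf. emx2 was at 0, 1.01 and 2.16 CPM in the first 18 hpf, second 18 hpf and 20 hpf libraries, then at 38.0 CPM at 24 hpf and 125 CPM at 30 hpf, and tnn at 0, 0.11 and 1.57 CPM, then 43.7 CPM and 120 CPM. barx1, near its 30 hpf level by 24 hpf, was at 0.93, 5.04 and 32.5 CPM in those earlier libraries. ednrab was at 1405, 1626 and 1277 CPM, then at 655 CPM at 24 hpf and 206 CPM at 30 hpf. grem2b was highest at 24 hpf (850 CPM), with 69.0, 485 and 689 CPM before it and 375 CPM after it. A Hox UMI was found in 3 of 39 cells at 14 hpf (7.69%, 1.62 to 20.9) and in 4 of 74 cells of the first 18 hpf library (5.41%, 1.49 to 13.3). It was found in 8 of 299 cells of the second 18 hpf library (2.68%, 1.16 to 5.20) and in 1 of 255 cells at 20 hpf (0.392%, 0.00993 to 2.17). The share thus did not rise steadily with age over these libraries. rrm2 was at 0.93, 0.90 and 256 CPM before 24 hpf, while rrm2.1 was at 608, 649 and 603 CPM.

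**Figure D5:**
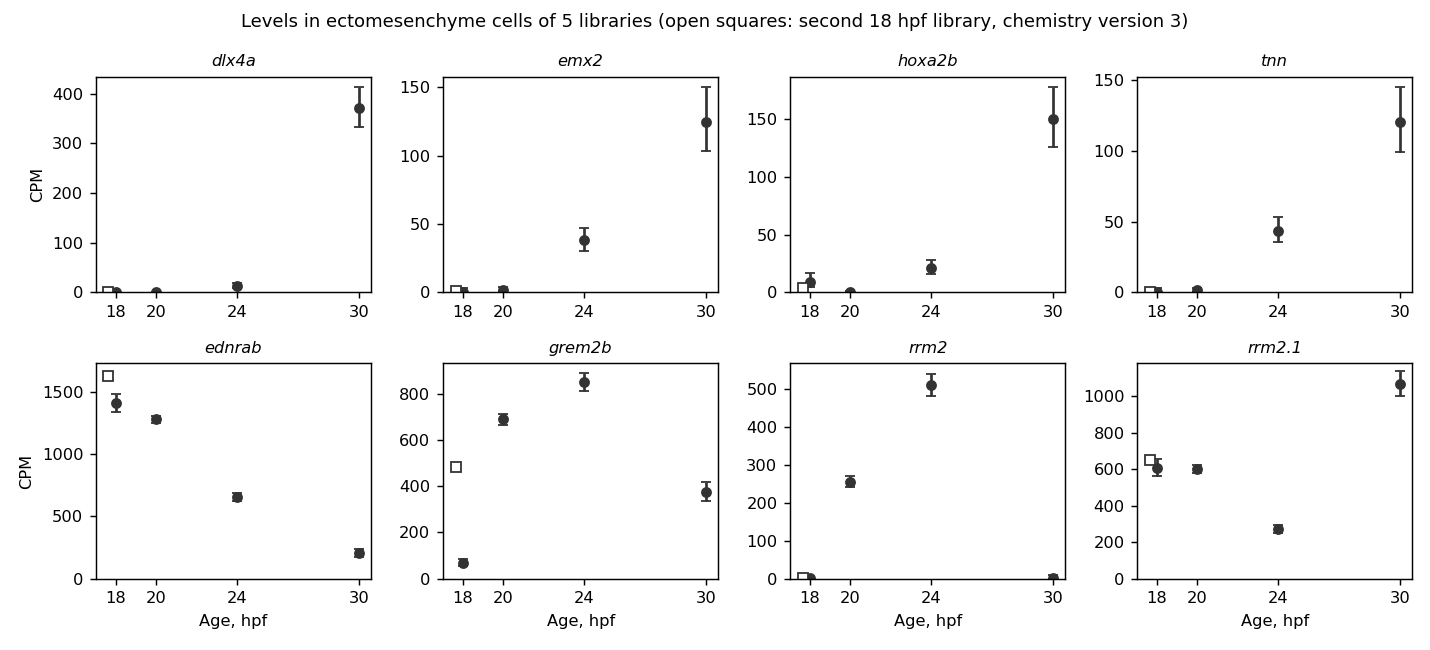
CPM of 8 genes in cells chosen by the same rule, by age of the embryos in hpf, 1 library per point, with exact Poisson 95% intervals. The open squares, set slightly to the left, are the second 18 hpf library. dlx4a, emx2, hoxa2b and tnn are highest at 30 hpf, ednrab is lowest there, grem2b is highest at 24 hpf, and rrm2 and rrm2.1 change places between 24 and 30 hpf.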

How the data were processed

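The authors made the deposited tables of UMI counts per gene and cell with Cell Ranger on the GRCz11 transcriptome, per the labels and methods (Cell Ranger version not given in the sources used here). Seurat 3 is also named in the submitters' processing notes. Whether libraries were subsampled when they were combined is not given there either. Cells of the combined table were assigned to libraries by the number at the end of the cell name, taken as the number that the labels give each sample. Cells with under 500 genes or over 10% mitochondrial counts were left out (0 at 30 and 24 hpf, 9 in the second 18 hpf library). The 24 and 30 hpf libraries were used for the comparison and the others for levels by stage. UMIs were summed over the ectomesenchyme cells of each library (921828 at 30 hpf, 2290324 at 24 hpf), scaled to CPM and compared as ratios with exact intervals. A library at 0 entered with a floor of 3 counts over the group. Ratios, intervals and the level filter were run on Poisson counts simulated with known folds. That checks the calculation only, since the simulated counts hold no differences between cells. Scrublet in scanpy 1.11.5 called 46 of 131 cells doublets at 30 hpf (8 of the 70 ectomesenchyme cells) and 1 of 388 at 24 hpf (0 of 164), and none were removed. That is 35.1% of cells at 30 hpf and 0.26% of cells at 24 hpf. The score thresholds were 0.059 at 30 hpf and 0.175 at 24 hpf, so the calls of the 2 libraries are not comparable.

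Genes were named by a fixed rule of size: in each direction the 12 largest ratios among genes with a mean of at least 20 CPM, at least 2-fold apart and with intervals apart, leaving out the 7 rule genes and genes without a symbol; and in each of 25 lists the members past 2-fold and up to 6 of the most abundant others. lhx6, ednraa, rrm2.1, col2a1a, sox9a, nog2 and the class comparisons were chosen after their values were seen. The members and lists were chosen with earlier results of these data known. Alternatives comprised other level filters, TMM (edgeR 4.0.16) and median-ratio scaling, equal weight per cell, doublets removed, other cell rules and thinning to 5000 UMIs. Tools were Python 3.11.15, pandas 2.3.3, scipy 1.17.1 and matplotlib 3.10.9.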

Additional observations from a re-analysis of the deposited data

Results flagged for a closer look

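The differences below ran in opposite directions in 2 groups of cells of the same libraries, with counting intervals apart in both groups. The difference between the groups was not tested, since each stage has 1 library. hand2 had a log2 ratio of 30 over 24 hpf of -0.63 in Hox-containing ectomesenchyme and 1.86 in Hox-free ectomesenchyme, a difference of -2.49. The lower level in Hox-containing cells rested on 1 cell of 24 hpf with 70 of the 174 UMIs. Without it, an alternative chosen after seeing the data, the log2 ratio there was 0.0181 (-0.35 to 0.39). The higher level in Hox-free cells also rested largely on few cells, with 36 and 30 of the 102 UMIs of 30 hpf in 2 cells. Against the other cells of the libraries, hand2 was 2.14-fold higher at 30 hpf in ectomesenchyme, while its log2 ratio in other cells was -1.57 (22.8 CPM at 30 hpf, 67.8 CPM at 24 hpf), a difference of 2.67 on the log2 scale. Of the 18 hand2 UMIs in other cells of 30 hpf 15 lay in 1 cell, and the log2 ratio without it was -4.14. six1b had a log2 ratio of -1.42 in ectomesenchyme and 1.33 in other cells (136 CPM at 30 hpf, 54.0 CPM at 24 hpf), a difference of -2.75.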

How the results depend on the processing

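No paired analysis was possible because each stage has 1 library. Against 291 genes past 2-fold (76 higher at 30 hpf, 215 lower), a level filter of 50 CPM left 111 (30 higher, 81 lower) and no filter 4931 (3376 higher, 1555 lower). Without a filter, the floor of 3 counts given to a library at 0 can set the direction. The matrix genes col4a1, col6a3 and fbn2b had 0 UMIs at 30 hpf and some at 24 hpf, yet came out past 2-fold higher at 30 hpf. The count of 3376 is therefore not read as a number of genes higher at 30 hpf. TMM scaling gave 129 higher and 112 lower, the median ratio 160 and 98, and totals without ribosomal protein genes, an alternative chosen after seeing the data, 180 higher. Thinning to 5000 UMIs gave 491 genes (120 higher, 371 lower) after selection and 563 (143 and 420) before it, and Hox-containing cells alone, also chosen after seeing the data, 620 (140 and 480). The share of cells chosen at 30 hpf was 72.9% with called doublets removed and 43.5% with thinning first.

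Of the log2 ratios of summed lists, that of mitosis (-0.81) was -0.63 by TMM, -0.57 by median ratio, -0.66 without ribosomal totals, -0.90 with 2 UMIs of both rule genes, -0.69 with 5 more genes required at 0, -0.93 with thinning first, -1.04 without and -0.68 in only Hox-containing cells. Matrix (0.44) was 0.62, 0.68 and 0.59 under those scalings, 0.54 with 5 more genes at 0, 0.57 and 0.53 with thinning after and before selection, and 0.78 without and 0.26 in only Hox-containing cells. Bmp (-0.80) was -0.62, -0.56 and -0.65 by scaling, and -0.60 and -0.89 by class. Cartilage (0.17) was 0.35, 0.42 and 0.32 by scaling, 0.32 without Hox-containing cells and -0.56 in those cells only. The Hox sum (2.11) was 1.68 with 5 more genes at 0 and 0.27 in only Hox-containing cells, which were chosen by their Hox UMIs. Meis and Pbx (0.88) was 1.13 by median ratio, and 0.19 without and 0.20 in only Hox-containing cells.

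Of 74 genes named past 2-fold, 66 stayed past it by TMM, 64 by median ratio, 61 with 5 more genes at 0 and 58 in only Hox-containing cells. Directions reversed for cxcl12a (-0.62) and her4.1 (0.38) with 5 more genes at 0, and for hand2 (-0.63) and hoxb2a (-0.47) in only Hox-containing cells. Those cells were chosen by Hox UMIs, so the hoxb2a value is a description only. lhx6 (-0.15) and meis1b (-0.12) changed sign there by less than the shift of all genes, and no direction is read from them. The hand2 value in Hox-containing cells became 0.0181 without the 24 hpf cell with the most hand2 UMIs. The cause of these changes was not tested. Genes with few UMIs at 30 hpf, where 921828 UMIs were summed, are limited most by depth.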
